A study of Mus musculus with 8 samples.

Results

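Segments of the mouse genome that carried H3K9me1 and H3K9me2 but not H3K9me3 numbered 10214 on 9 chromosomes (5, 8, 9, 10, 11, 14, 15, 17 and 19) of wild-type mouse embryonic fibroblasts (MEFs), out of 90626 marked runs of at least 1500 bp in all. They covered 35.1 Mb, or 3.47% of the sequenced bases of these chromosomes. The segments were chosen by the deposited region calls themselves. The region lists of the 3 methylation states were laid over each other, and the chromosomes were split into maximal runs with 1 set of marks. Runs of at least 1500 bp with both lower states called and H3K9me3 not called were kept. Here a mark is present or absent by these calls only, so H3K9me3 below the calling threshold cannot be seen. The study reports broad H3K9me3 signals at its H3K9me2 peaks. Their mark content and their minimum width were therefore fixed by the selection and are given only as a description. The study profiled H3K9me1, H3K9me2, H3K9me3 and input chromatin by ChIP-seq in 2 biological replicates each, 8 samples in all. The MEFs were the E1c line, which carries a tamoxifen-inducible conditional deletion of Eset1 (Setdb1) that was not induced here and which served as the wild-type control, so every sample shares this genotype and no treatment or mutant is compared. Each deposited list gives 1 set of regions per mark with no read count, no height and no value per replicate. The depth behind a region is thus unknown, no replicate error can be given and no test between conditions was possible. Differences are given as shares with 95% Wilson intervals, which cover counting error only, and by the number of chromosomes on which they had the same direction. Lists of regions carry no expression values, so the fibroblast identity could not be checked against marker genes.

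Methylation of histone H3 at lysine 9 exists in mono-, di- and trimethylated states, which are laid down by different enzymes. The G9a and Glp enzymes (Ehmt2 and Ehmt1) act as a heterodimer that mainly places mono- and dimethylation at euchromatic loci and is known for silencing genes that belong to other lineages or to the germline. H3K9me3 recruits HP1 proteins through their chromodomains. It is made by enzymes of another kind, of which the Suv39h pair is best known for pericentric satellite repeats and Eset1 for endogenous retroviruses. Region calls alone do not name the enzyme behind a mark.

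The first set of sequences below holds 200 bases from the centre of 3 of the 4 widest segments, read on the plus strand of GRCm38, and is shown because these segments are described one by one further on. CpG dinucleotides are in capitals. The centre of the widest segment (chr14:31296276-31296475) lay in Dnah1, with 88 of the 200 bases coding, and had 7 CpG. The centre in Dscaml1 (chr9:45616401-45616600) held no coding base and 1 CpG. The centre in Tg (chr15:66749151-66749350) held no coding base and no CpG.
Dnah1 segment centre: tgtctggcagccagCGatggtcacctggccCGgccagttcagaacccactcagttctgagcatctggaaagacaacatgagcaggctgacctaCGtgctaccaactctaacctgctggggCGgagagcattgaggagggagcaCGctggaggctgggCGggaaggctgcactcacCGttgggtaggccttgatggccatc
Dscaml1 segment centre: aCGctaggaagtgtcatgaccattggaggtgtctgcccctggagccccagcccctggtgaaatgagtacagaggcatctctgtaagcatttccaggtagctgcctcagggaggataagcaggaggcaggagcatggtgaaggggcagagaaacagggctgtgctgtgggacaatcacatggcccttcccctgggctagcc
Tg segment centre: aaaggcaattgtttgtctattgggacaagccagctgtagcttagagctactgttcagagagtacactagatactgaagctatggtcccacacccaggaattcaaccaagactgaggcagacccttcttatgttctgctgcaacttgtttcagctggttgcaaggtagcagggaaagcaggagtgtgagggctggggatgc

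The second set holds the 250 bases before a RefSeq transcript start that lay wholly inside a segment. Of 29 such windows among the genes of the lists and families described below, 14 had no annotated UTR. Of these 14, 5 held no CpG, 5 held 1 to 3 and 4 held more, up to 13. The 6 shown, chosen after their letters were seen, are 2 from each of these 3 classes. They are printed in the direction of the gene, on GRCm38, again with CpG in capitals. The windows of Slc22a6, an organic anion transporter of the kidney (chr19:8617746-8617995, plus strand), and of Cyp3a57, a cytochrome P450 (chr5:145345019-145345268, plus strand), held no CpG. Those of H2-M10.5, a non-classical class I histocompatibility gene (chr17:36772660-36772909, plus strand), and of the olfactory receptor Olfr324 (chr11:58597095-58597344, plus strand) held 2 and 3. Those of Slc18a2, the vesicular monoamine transporter (chr19:59260628-59260877, plus strand), and of Slc26a5, the motor protein of outer hair cells (chr5:21865605-21865854, minus strand), held 9 and 13.
Slc22a6: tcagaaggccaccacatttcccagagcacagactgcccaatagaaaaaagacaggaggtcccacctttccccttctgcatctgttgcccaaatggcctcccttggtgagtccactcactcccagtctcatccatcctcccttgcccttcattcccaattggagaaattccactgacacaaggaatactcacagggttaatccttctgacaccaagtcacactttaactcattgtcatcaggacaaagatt
Cyp3a57: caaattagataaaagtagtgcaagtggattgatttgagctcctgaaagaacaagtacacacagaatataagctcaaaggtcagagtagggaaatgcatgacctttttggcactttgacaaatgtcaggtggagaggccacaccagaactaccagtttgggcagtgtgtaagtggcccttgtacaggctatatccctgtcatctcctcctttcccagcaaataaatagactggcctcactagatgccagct
H2-M10.5: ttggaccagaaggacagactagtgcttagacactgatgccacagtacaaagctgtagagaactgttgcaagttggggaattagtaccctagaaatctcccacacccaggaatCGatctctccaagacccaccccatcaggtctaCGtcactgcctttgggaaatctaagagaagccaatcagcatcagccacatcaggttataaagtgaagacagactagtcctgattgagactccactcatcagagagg
Olfr324: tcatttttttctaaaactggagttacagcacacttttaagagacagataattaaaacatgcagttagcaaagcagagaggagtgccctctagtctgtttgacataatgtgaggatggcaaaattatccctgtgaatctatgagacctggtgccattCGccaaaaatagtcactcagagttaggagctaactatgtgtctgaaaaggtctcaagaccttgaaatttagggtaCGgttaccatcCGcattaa
Slc18a2: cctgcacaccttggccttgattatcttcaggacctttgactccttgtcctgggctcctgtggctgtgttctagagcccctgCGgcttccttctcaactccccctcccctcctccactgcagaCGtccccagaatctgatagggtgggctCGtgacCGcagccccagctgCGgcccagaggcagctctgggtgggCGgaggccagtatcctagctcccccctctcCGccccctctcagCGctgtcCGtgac
Slc26a5: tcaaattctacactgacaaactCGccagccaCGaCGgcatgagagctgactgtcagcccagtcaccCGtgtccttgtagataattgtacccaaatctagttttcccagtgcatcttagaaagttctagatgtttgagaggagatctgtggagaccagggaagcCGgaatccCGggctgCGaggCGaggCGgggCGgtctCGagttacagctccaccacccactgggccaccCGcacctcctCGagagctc

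Most segments were short. The median width was 3.0 kb, the 90th percentile 6.0 kb and the widest 35.25 kb, whereas runs of H3K9me1 alone had a 90th percentile of 12 kb and runs of all 3 marks one of 15 kb. At the selection threshold, 2892 segments were exactly 1500 bp wide and 3709 runs with the same marks were 750 bp wide and were left out. These 2 groups had the same GC content of 44.1%, soft-masked repeats of 27.1% inside and 27.6% outside, and a promoter in 9.79% and 9.09%. Soft-masked bases are those that the reference prints in lower case as repeats. The kinds of repeat behind them were not separated. Repeat content was 22.4% in the 319 segments of at least 9750 bp, and the share that met no gene body or promoter was 31.0% (95% interval 26.2 to 36.3) in these against 44.2% (42.4 to 46.0) at 1500 bp. A wider run meets more annotation by its length alone, so these shares cannot be compared directly across widths. Whether the sequence also played a part was not tested.

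The segments were unevenly spread over the chromosomes. The lists are themselves uneven over the genome, with 27621 of 29119 H3K9me2 regions on these 9 chromosomes. Whether uneven calling lay behind the densities was not tested. Chromosome 15 held 2056 segments (20.4 per Mb) and chromosome 10 held 2550 (20.1 per Mb), while chromosomes 11 and 14 held 451 and 442, or 3.8 and 3.64 per Mb. Between these lay chromosome 19 with 869 (14.9 per Mb), chromosome 8 with 1634 (13.0 per Mb), chromosome 9 with 835 (6.89 per Mb), chromosome 17 with 594 (6.48 per Mb) and chromosome 5 with 783 (5.29 per Mb). The density did not follow how often the pair of marks was free of called H3K9me3. On chromosome 10 only 15.2% of the bases with both H3K9me1 and H3K9me2 lay in segments, the lowest of the 9, and on chromosome 11 the share was 67.2%, the highest, with 65.2% on chromosome 9 and 53.1% on chromosome 5. Chromosome 10 was thus rich in segments while 83% of its doubly marked bases also carried H3K9me3, against 30.3% on chromosome 11. Over the 9 chromosomes together, 26.3% of the 133 Mb with both lower states lay in segments, as did 12.1% of all H3K9me1 bases and 14.7% of all H3K9me2 bases.

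**Figure D1:**
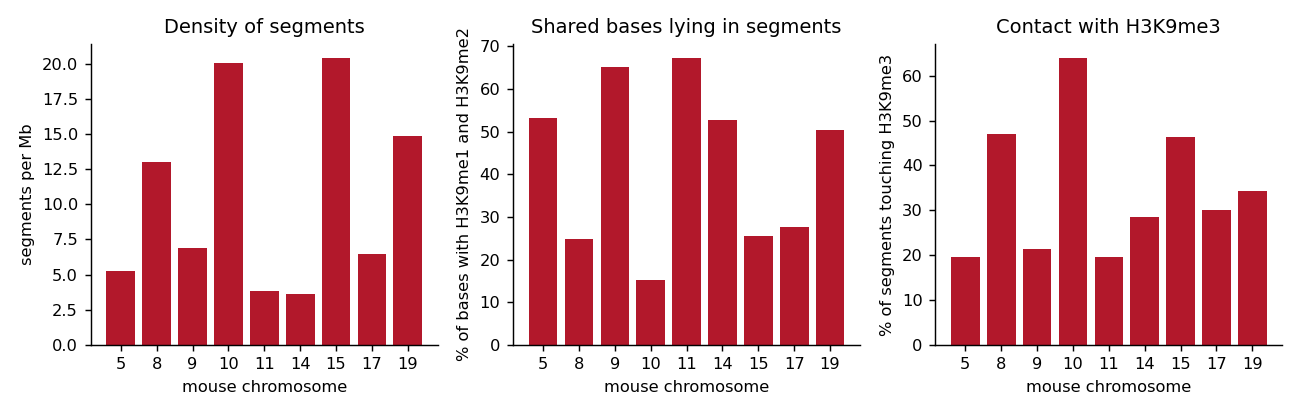
Segments on the 9 chromosomes. Bars give the number of segments per Mb (left), the percentage of bases with both H3K9me1 and H3K9me2 that lay in segments (middle) and the percentage of segments with H3K9me3 directly beside them (right). Chromosome 10 is among the 2 densest at 20.1 per Mb, yet is lowest in the middle panel at 15.2% and highest in the right panel at 63.9%.

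H3K9me2 was more often the mark that ended at a segment border than H3K9me1. Of 20428 borders, 44.1% (43.4 to 44.7) were places where H3K9me2 stopped and H3K9me1 went on, and 18.7% (18.2 to 19.3) were places where H3K9me1 stopped and H3K9me2 went on. At 24.9% (24.3 to 25.5) H3K9me3 began while both lower states went on, and at 10.9% both ended into unmarked sequence. H3K9me1 alone flanked both sides of 2443 segments, 23.9% of all, so that these were islands of dimethylation inside monomethylated sequence. All 3 marks flanked both sides of 929 segments (9.10%), which were gaps between H3K9me3 calls. Unmarked sequence on both sides was rare, with 154 segments (1.51%). Of the 27621 H3K9me2 regions on these chromosomes, 31.3% held a segment and 12.7% were a segment from end to end, against 20.9% and 3.82% of the 36774 H3K9me1 regions.

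Pooled over the 9 chromosomes, segments with H3K9me1 on both sides and those between all 3 marks differed in sequence. The former had 46.4% GC, 24% soft-masked bases and 11 CpG per kb, and the latter 43.8%, 27.6% and 9.08. The 618 segments between H3K9me2 alone on both sides had 43.9% GC, 24.3% soft-masked bases and 8.27 CpG per kb, so their repeat content was like that of the first group and their CpG content was lower than that of either. The segments without annotated gene body or promoter made up 31.7% (29.9 to 33.6) of those inside H3K9me1 and 45.6% (41.7 to 49.6) of those inside H3K9me2. The chromosomes differed both in flanks and in sequence. On chromosome 10, 63.9% of segments touched H3K9me3 and segment GC was 42.5%. On chromosomes 5 and 11, 19.5% touched it and segment GC was 47.4% and 46.9%. Whether the groups of flanks differed within a chromosome was not tested.

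H3K9me3 directly adjoined 4369 segments (42.8%, 41.8 to 43.7). A further 17.8% had it within 5 kb, 19.8% between 5 and 20 kb and 19.7% farther away. The share in contact ranged from 19.5% on chromosomes 5 and 11 to 63.9% on chromosome 10, where 40.2% (38.9 to 41.6) of borders were the start of H3K9me3 against 19.8% (19.1 to 20.4) on the other 8 chromosomes. Segments also came in groups. The median gap to the next segment was 15 kb. At 5.25 kb beyond a border 16.9% of positions held H3K9me1 and H3K9me2 without H3K9me3, runs of 750 bp included. Segments, which leave these short runs out, filled 3.47% of the 9 chromosomes and 7.15% of chromosome 15, the highest. With the short runs the covered length was 37.9 Mb rather than 35.1 Mb.

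**Figure D2:**
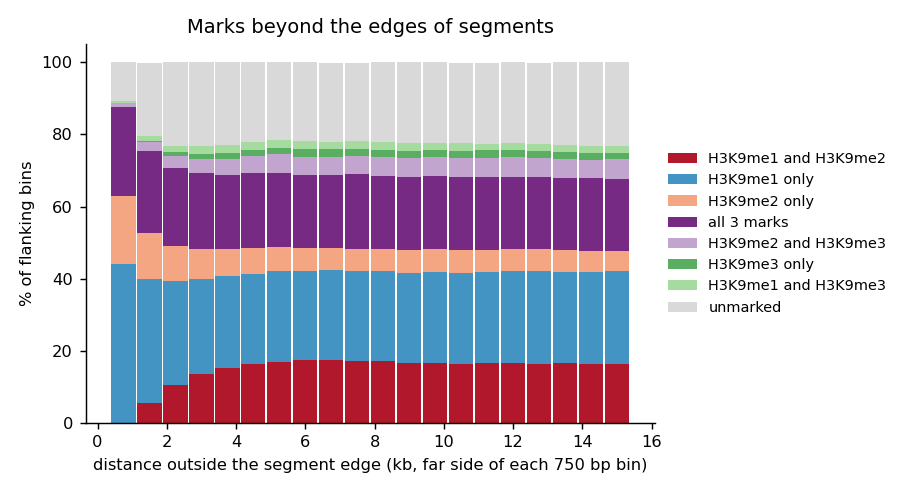
Marks beyond the borders of the segments. Each bar gives the percentages of 750 bp bins with each set of marks at a distance outside the border, in kb, over the borders of all 10214 segments. The first bin holds no segment by construction, with H3K9me1 only at 44.1% and unmarked sequence at 10.9%, and unmarked sequence is at 21.7% by 5.25 kb.

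Pooled over the 9 chromosomes, the segments were close to H3K9me1 alone in soft-masked content. Their pooled GC content lay between that of H3K9me1 alone and that of all 3 marks, and their CpG content was nearer to the latter. They had 44.9% GC and 25.1% soft-masked bases, against 46.0% and 24.9% in runs of H3K9me1 alone, 43.5% and 30.1% in runs of all 3 marks, 42.5% and 36.0% in runs of H3K9me2 and H3K9me3, 42.2% and 41.0% in runs of H3K9me3 alone, and 44.8% and 30.5% in runs of H3K9me1 and H3K9me3. Compared with all other marked sequence of the same chromosome, GC was higher in 9 of 9 chromosomes, by 0.699 to 1.81 percentage points, and soft-masked content was lower in 9 of 9, with differences from -4.92 points on chromosome 5 to -10.3 points on chromosome 14. Against runs of all 3 marks the repeat content was lower on 9 of 9 chromosomes and GC was higher on 8 of 9, the exception being chromosome 10. Against runs of H3K9me1 alone no direction held, with GC higher on 3 chromosomes and lower on 6, and repeats higher on 4 and lower on 5. The GC differences by chromosome ran from -0.977 to 0.861 points, so the pooled GC order against H3K9me1 alone did not hold on each chromosome. Chromosomes 10 and 15 held 8.12 and 7.20 Mb of the segments, at the lowest segment GC of the 9 (42.5% and 44.2%). The part that this mix of chromosomes played in the pooled values was not tested. CpG stood at 9.76 per kb in segments. It was 11.6 in H3K9me1 alone and 12.1 in H3K9me1 with H3K9me3, and 9.29 under all 3 marks, 9.08 in H3K9me3 alone, 8.41 in H3K9me2 with H3K9me3 and 8.17 in unmarked sequence, so the segments were lower than the first 2 classes and higher than the other 4. Against H3K9me1 alone they were lower on 9 of 9 chromosomes. Without the bins that a promoter window touched, the values of segments and H3K9me1 alone were 9.52 and 11.2, so the difference was also present away from promoters. Runs of H3K9me2 alone were lowest in CpG, at 7.40 per kb, with 42.6% GC and 31.3% soft-masked bases.

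**Figure D3:**
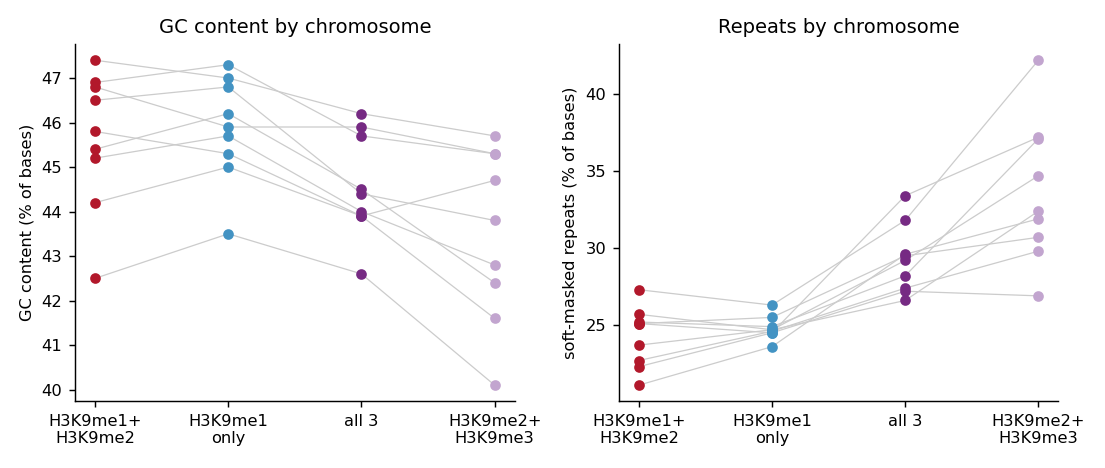
GC content (left) and soft-masked repeats (right) as percentages of bases, 1 point per chromosome and set of marks, with grey lines joining a chromosome. The segments (H3K9me1 and H3K9me2) and H3K9me1 alone overlap in both panels, and on every chromosome the segments hold fewer repeats than runs of all 3 marks.

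Segments held fewer gene starts than their length would give. They covered 3.47% of bases and held 2.66% of annotated transcript starts, a ratio of 0.767, while the ratio was 1.23 for H3K9me1 alone, 0.608 for all 3 marks, 0.549 for H3K9me2 alone and 0.410 for H3K9me2 with H3K9me3. The order against H3K9me1 alone held on 9 of 9 chromosomes, as did that against H3K9me2 with H3K9me3 and against H3K9me2 alone. Against all 3 marks the segments were higher on 7 of 9. By chromosome the ratio of the segments ran from 0.635 on chromosome 10 to 1.18 on chromosome 14. Introns made up 45.2% of segment bases, sequence between genes 44.4%, promoters 6.35% and coding exons 1.45%. Over the 9 chromosomes as a whole these were 41.9%, 48.0%, 6.61% and 1.10%, and in H3K9me1 alone 57.7%, 24%, 10.2% and 2.84%. Of the segments, 1529 (15%, 14.3 to 15.7) met a promoter, taken as 1 kb to each side of a transcript start, and 40.5% (39.6 to 41.5) met neither promoter nor gene body.

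The promoters inside segments held fewer CpG than those of the 9 chromosomes as a whole, as did those inside the other marked classes. RefSeq gives 14301 windows of 300 bases on these chromosomes, from 250 before to 50 after a start, and 407 of them lay wholly in segments. Their median CpG number was 3.0, against 5.0 in H3K9me1 alone, 4.0 under all 3 marks, 16.0 in unmarked sequence and 8.0 over all windows. Windows with 12 or more CpG made up 7.86% (5.62 to 10.9) in segments, 13.0% (11.5 to 14.6) in H3K9me1 alone, 9.43% (7.78 to 11.4) under all 3 marks and 42.2% (41.4 to 43.0) overall. Slc26a5, printed above with 13 CpG in its 250 bases, is of the CpG-rich kind, and Slc22a6 and Cyp3a57 lie at the other end. The GC box, GGGCGG on either strand, occurred in 13.5% (10.5 to 17.2) of windows in segments, 17.9% in H3K9me1 alone, 11.1% under all 3 marks, 15% in H3K9me2 with H3K9me3, 49.0% of unmarked windows and 37.5% of all. The TATA box, TATAAA on either strand, occurred in 16.0% (12.7 to 19.8) against 19.8% (17.5 to 22.4) under all 3 marks and 12.8% (12.3 to 13.4) of all, and CCAAT in 36.1% (31.6 to 40.9) against 37.5%. The E-box CACGTG, a site that itself holds a CpG, occurred in 2.95% (1.69 to 5.08) against 7.38% (6.25 to 8.70) in H3K9me1 alone, 6.68% (5.30 to 8.38) under all 3 marks, 4.02% (2.59 to 6.19) in H3K9me2 with H3K9me3 and 7.83% (7.40 to 8.28) of all, and CACCTG, which holds none, in 23.3% (19.5 to 27.7) against 20.9%. A match of letters is not a bound site. The low share of the GC box was thus common to all these marked classes.

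Segment cover did not build up towards the ends of genes as H3K9me1 alone did. In the 4344 protein-coding genes of at least 20 kb, the segments covered on average 2.99% of decile 1 of the body, counted from the 5' end, 4.04% of decile 4 and 3.65% of decile 10. H3K9me1 alone rose from 18.2% to 40.5% over the same span. Taking the last 2 deciles over the first 2, the ratio was 1.09 for segments, 1.72 for H3K9me1 alone, 1.17 for all 3 marks and 0.989 for H3K9me2 alone. The ratio of H3K9me1 alone exceeded that of the segments on 8 of 9 chromosomes, and on chromosome 10 the order was the opposite, with 1.10 and 1.17. Of these genes, 1279 (29.4%) held any segment sequence, 178 had over 25% of the body covered and 16 over 50%.

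**Figure D4:**
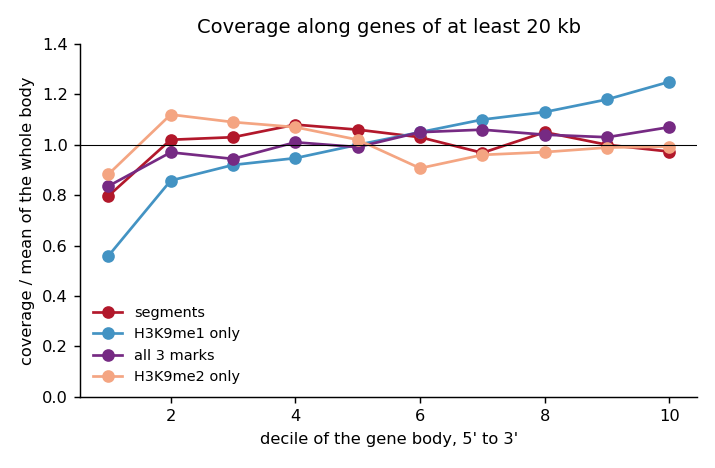
Mean cover of 4344 protein-coding genes of at least 20 kb by deciles of the gene body from 5' to 3', divided by the mean over the body. Segments stay between 0.797 and 1.08, and H3K9me1 alone goes from 0.559 in decile 1 to 1.25 in decile 10.

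In the 15 genes of at least 20 kb with the largest share of body in segments, that share ran from 51.3% to 72.4%, against a median of 0 over all 4344. They are ranked by the measure shown, so their values are a description. Spatc1, a spermatogenesis and centriole gene (chr15:76268089-76292572), led with 72.4% of its 24.5 kb in 3 segments, and the other 27.6% carried H3K9me1 alone. Gas6, the secreted ligand of the Tyro3, Axl and Mertk receptors (chr8:13465374-13494490), followed with 70.0% of 29.1 kb, and its promoter was not met by a segment. Cd6, a surface receptor of T cells (chr19:10789341-10830058), had 66.5% of 40.7 kb in 5 segments. Dnah1, an axonemal dynein heavy chain of cilia and sperm tails (chr14:31260375-31323896), had 64.9% of 63.5 kb, with H3K9me1 alone in its promoter windows. Tmprss4, a membrane serine protease of epithelia, had 64.9% of 31.4 kb on chromosome 9, and BC049352, whose body overlaps it, had 58.8% of 68.0 kb, so both share segments.

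Tg, the gene of thyroglobulin from which thyroid hormone is made (chr15:66670753-66850721), had the most segment sequence of the 15, with 114 kb of its 180 kb body (63.2%) in 13 segments of 1.5 to 24 kb, median 9.0 kb. H3K9me1 alone took 16.3% of the body, unmarked sequence 13.0% and all 3 marks 2.50%. Sla, an adaptor of lymphocyte receptor signalling on the other strand within Tg, had 51.6% of its 51.0 kb covered by segments that Tg also counts. Cacna1i, a T-type calcium channel of neurons (chr15:80287238-80398279), had 57.0 kb of 111 kb (51.3%) in 12 segments, with H3K9me1 alone over 19.8% and all 3 marks over 19.4%. The other genes of the 15 were Erich5 (55.3%), Necab2, a neuronal calcium-binding protein (55.0%), Dao, the D-amino acid oxidase of kidney and brain (54.6%), Endou (53.3%), Ky, a muscle gene (51.9%), and 1700020N01Rik (51.3%). Necab2, Ky and 1700020N01Rik had all 3 marks over 37.2%, 25.3% and 30.7% of the body, whereas Spatc1 and Endou had none. Gene bodies with like segment cover thus differed in how much trimethylation lay beside it.

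**Figure D5:**
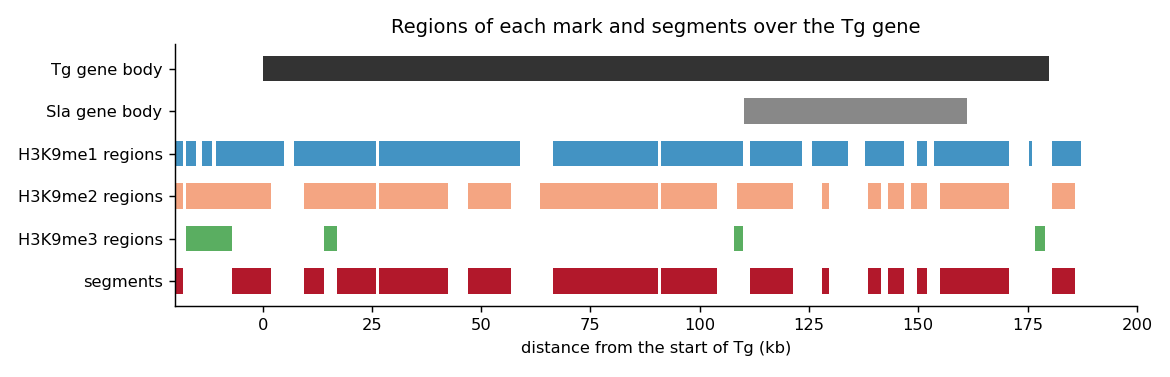
Regions of each mark over Tg, by distance in kb from the start of the gene, with the gene bodies of Tg and of Sla above and the segments below. The 13 segments that meet Tg follow the overlap of H3K9me1 with H3K9me2 regions and fill 63.2% of the 180 kb body.

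The 10 widest segments lay in genes or in sequence between genes, and 1 of the 10 met a promoter. The widest, chr14:31278751-31314000, ran for 35.25 kb inside Dnah1, with 20.8% of its bases in exons, 51.5% GC, 10.6% soft-masked bases and 14 CpG per kb. Segments of 31.5 kb lay in Dscaml1, a neural cell adhesion gene (chr9:45600751-45632250), wholly in introns at 48.6% GC, and in Wdfy4, a gene of antigen presentation by dendritic cells (chr14:33111751-33143250), at 44.0% GC with all 3 marks on both sides. The 24 kb segment in Tg (chr15:66737251-66761250) held 5.33 CpG per kb and 8.93% soft-masked bases, and was 17.25 kb from H3K9me3. Gas6 held one of 20.25 kb (chr8:13469251-13489500) with H3K9me1 alone on both sides, and Aig1 one of 21 kb that reached beyond the gene (chr10:13641751-13662750). The other 4 met no protein-coding gene. The pair on chromosome 10 nearest to Hivep2 (chr10:13938751-13961250, 22.5 kb) and Stx11 (chr10:12970501-12991500, 21 kb) had 33.1% and 33.4% soft-masked bases. The pair on chromosome 8, nearest to Irf2bp2 (chr8:126633001-126653250) and Nrp1 (chr8:128327251-128347500), lay 39.0 and 11.1 kb from these genes, and the latter was 165.0 kb from H3K9me3 with 4.69 CpG per kb. In all, 6 segments shared the width of 20.25 kb at rank 10, and those shown come first in chromosome order. Soft-masked bases made up 8.93% to 16.9% of the 5 within the bodies of Dnah1, Dscaml1, Wdfy4, Tg and Gas6, 27.8% of the one that met Aig1 and 23.6% to 33.4% of the 4 between genes.

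Promoters of 1544 of 22392 annotated genes (6.90%) and of 708 of 9632 protein-coding genes (7.35%) were met by a segment, and these shares are the background for the groups that follow. In 1118 of the 1544, and in 454 of the 708, no H3K9me3 region reached the same promoter windows. Among gene types the share was 9.24% (8.16 to 10.5) for lincRNAs, 6.78% for processed pseudogenes, 5.42% for miRNA genes and 5.72% for antisense genes, so that the lincRNA interval lay above the background and the others lay near or below it.

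Families of genes differed around the protein-coding background of 7.35%. Of 34 H2- genes, the histocompatibility genes of chromosome 17, 8 were met (23.5%, 12.4 to 40), by 8 segments. Of these 8, 6 were non-classical H2-M genes. The number of H2-M genes among the 34 was not counted, so this count gives no share. Of 183 Slc genes, the solute carriers, 24 were met (13.1%, 8.97 to 18.8) by 26 segments on all 9 chromosomes. They included Slc22a6 of the kidney, Slc18a2 of monoamine neurons and Slc26a5 of hair cells, whose sequences are printed above. Collagen genes had 6 of 21 (28.6%, 13.8 to 50) and voltage-gated calcium channel genes (Cacn) 4 of 14 (28.6%, 11.7 to 54.6). Cyp genes, the cytochrome P450s, had 9 of 58 (15.5%, 8.38 to 26.9). The 458 olfactory receptor genes were near the background with 39 met (8.52%, 6.29 to 11.4). Kcn potassium channels had 5 of 37 (13.5%, 5.91 to 28.0) and Krt keratins 4 of 53 (7.55%). The 153 Zfp zinc finger genes were low, with 2 met (1.31%, 0.359 to 4.64). Vmn vomeronasal receptors had 1 of 67 (1.49%, 0.264 to 7.98), an interval that reaches the background. Defb had 1 of 29, miRNA genes named Mir 23 of 460 (5.0%, against 6.90% of all genes), and Defa (22 genes), Krtap (26), Gabr (9) and Pcdh (6) had none, with upper interval bounds of 14.9%, 12.9%, 29.9% and 39.0%. Genes of a family that stand side by side can share a segment, so the intervals treat as separate what may be 1 event. The intervals of the H2-, Slc, collagen, Cacn and Cyp families lay above 7.35%, that of Zfp lay below it, and all others contained it or, for Mir, the background of all genes. The share of genes with H3K9me3 at a promoter was 26.5% for H2-, 29.0% for Slc, 42.9% for collagen, 42.9% for Cacn and 53.4% for Cyp. It was 34.9% for olfactory receptors and 17.6% for Zfp, and no background is given for it. Whether the higher shares were particular to segments was not tested.

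Of the 7 gene lists, none stood clear of the background at its promoters. The H3K9 methylation writers, readers and erasers had 0 of 10 (up to 27.8%) and the cell cycle and p53 genes 0 of 19 (up to 16.8%). The list of fibroblast matrix and surface genes had 3 of 17 (17.6%, 6.19 to 41.0), which were Col6a1, a chain of collagen VI, and the small proteoglycan genes Dcn and Lum. The interferon list had 3 of 26 (11.5%, 4.0 to 29.0), the double-stranded RNA sensor Tlr3 and the oligoadenylate synthetases Oas2 and Oas3. Neuronal genes had 3 of 25 (12%), all calcium channels (Cacna1a, Cacna1h and Cacna1i), germline genes 2 of 20 (10%), the piRNA helicase Mov10l1 and the meiotic telomere gene Majin, and immune genes 2 of 20 (10%), Lyz2 and Ly6g. Gene bodies gave a wider spread. Against 18.4% of all protein-coding genes with segment sequence in the body, the count was 9 of 20 for germline genes (45.0%), 11 of 25 for neuronal genes (44.0%), 6 of 17 for fibroblast genes (35.3%), 4 of 20 for immune genes (20%), 4 of 26 for interferon genes (15.4%), 2 of 19 for cell cycle genes (10.5%) and 1 of 10 for the methylation machinery (10%). A long gene meets a segment more easily than a short one, and lengths were not matched.

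The listed genes whose promoter was met differed in what surrounded it. H3K9me3 also reached the promoter windows of Cacna1a, Cacna1h, Cacna1i, Mov10l1, Majin and Lyz2. It did not reach those of Col6a1, Dcn, Lum, Tlr3, Oas2, Oas3 and Ly6g. Col6a1 (chr10:76708792-76726168) had 64.7% of its 17.4 kb body in 1 segment, and Lyz2, the macrophage lysozyme (chr10:117277331-117282321), had 66.5% of 4.99 kb. Ly6g, a neutrophil surface gene, had 57.9% of 3.89 kb. Tlr3 (chr8:45395665-45411080) had no segment in its body, since the one at its promoter lay outside it, and 54.0% of the body was unmarked. Oas2 was covered mainly by H3K9me1 alone (80.8% of its 19.5 kb) with 15.4% in a segment, and Oas3 by 17.9% with 39.3% unmarked. Dcn had 3.89% and Lum 19.8% of the body in a segment. In Mov10l1 and Cacna1a the segments were small parts (18.7% and 7.47%) of bodies mostly under all 3 marks (60.6% and 62.8%), and Cacna1h was mostly under H3K9me1 alone (62.2%, with 17.6% in segments). Majin had 26.3% in segments and 22.9% under all 3 marks. Cover of most of the body, a start alone, or small parts of a body mostly under all 3 marks were thus all seen among these genes.

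Of the genes that the study displays as examples, 12 lie on the 9 chromosomes, and Cacna1i and Tlr3 were the ones whose promoters were met. The study gives Cacna1i as an example of H3K9me1 and shows the surroundings of a single start. Its promoter windows here, taken over all annotated starts, also held H3K9me3, which may lie at another start. The promoter windows of Tlr3 held H3K9me1 and H3K9me2 only. Tcap, Bbs9, Cdkn1a, Cdk1 and Pou5f1 had H3K9me1 as the single mark at the promoter, and Defb40, Olfr1431 and Treml4 had H3K9me2. Olfr1431 had 26.0% and Bbs9 1.09% of the body in 1 segment each. Nkx6-1 had H3K9me3 alone, over 47.3% of its body, and Actb, the cytoplasmic actin, carried no mark.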

How the data were processed

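H3K9me1, H3K9me2, H3K9me3 and input chromatin of wild-type MEFs were profiled by ChIP-seq in 2 biological replicates each. Per the labels and the study's methods, the authors aligned paired-end reads to mm10 (GRCm38) with BWA 0.7.1 and called regions with histoneHMM (version not given in the sources used here), 1 list per mark. The deposited lists hold region starts and ends only, on a grid of 750 bp, so a border is known to 1 bin, and how the replicates entered the calls cannot be seen in them. They held 42704 H3K9me1, 29119 H3K9me2 and 27108 H3K9me3 regions, for each mark slightly fewer than the study's text reports. No test was run, since no value per replicate was given.

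The lists were laid over each other in Python 3.11.15 with NumPy 2.4.6, and runs of at least 1500 bp were kept on the 9 chromosomes that the lists cover broadly. Base composition and soft-masking came from NCBI's GRCm38.p6 sequence, genes from GENCODE release M21 and promoter sequences from RefSeq. Shares carry 95% Wilson intervals. The splitting was tested on simulated lists. Genes named in the text were those met by the 10 widest segments, the 15 of at least 20 kb with the largest share of body covered, listed genes whose promoter was met, and genes the study shows. Family members and nearest genes named beyond these were chosen after their values were seen. Members and lists were chosen with earlier results of these data known. Alternatives were other minimum widths, promoter windows, chromosomes and gene sets, closed gaps, and distance from H3K9me3. The centre sequence of 1 of the 4 widest segments is not reported here.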

Additional observations from a re-analysis of the deposited data

How the results depend on the processing

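The lists hold no depth or replicate values, so neither the precision of a border nor the spread between replicates could be measured. No paired analysis was possible because no replicate appears in any list and nothing was tested. Of 60 alternative values, 33 stayed within the counting interval, within 1.5 times the count, or within 1 SD over chromosomes of the difference, and 27 moved beyond it. No GC or soft-masked difference changed sign, with ranges of 0.918 to 1.85 and -7.89 to -6.35 percentage points. The cause of the moves was not tested.

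With a minimum of 750 bp the share meeting a promoter was 13.4%, the share touching H3K9me3 49.1% and the share with H3K9me1 alone on both sides 20.7%. With 3000 bp there were 5253 segments, and these shares were 18.9%, 39.3% and 26.4%, with 38.1% meeting no gene or promoter. With gaps closed, 16.2% met a promoter and 47.5% touched H3K9me3. At least 5 kb from H3K9me3, by construction fewer, lay 4031 segments over 14.2 Mb. These met 667 gene promoters, 15.9% of them met a promoter and 39.3% no gene, and GC was 1.85 points above other marked sequence. Over all main chromosomes there were 10672 segments, of which 41.4% touched H3K9me3. The 10214 reported segments are among these, so this setting mostly used the same segments again. It cannot show whether the share holds on the other chromosomes. With chromosome 10 left out of the reported chromosomes, 35.8% touched H3K9me3, 15.9% met a promoter, 41.5% met no gene and 25.4% lay between H3K9me1 alone. Promoters of 500 bp, 2 kb or at the 5' end only gave shares of 12.5%, 21% and 10.6%. With protein-coding genes only, 7.83% met a promoter, 708 genes were met and 53.6% met no gene.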
